A study of Mus musculus with 6 samples.

Results

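Bulk-seq of whole spinal cord was examined for the genes that code for the factors of translation initiation, elongation and release. Members were taken by name: gene symbols starting with Eif1 to Eif6, Eef1, Eef2 or Etf1, without pseudogene names and without the sex-linked pair Eif2s3x and Eif2s3y, and with an FPKM above 0 in at least 1 library. This gave 63 of the 25576 genes listed in the deposited values. All mice were of strain FVB and 4 days old. SMA mice (mSmn-/-, hSMN22tg/0) lacked functional mouse Smn and carried the human SMN2 transgene, and control mice had the same transgene on a heterozygous background (mSmn+/-, hSMN22tg/0). Each group had 3 libraries, made from total RNA after removal of ribosomal RNA. Nothing in the labels says that the 3 libraries of a group came from separate animals, so the p-values measure only the spread between these libraries, which may be technical in part. The Y-linked Eif2s3y was at 33.6, 31.0 and 0.0325 FPKM over SMA replicates 1, 2 and 3, so the SMA libraries were not all repeats of the same RNA. The values are FPKM, fragments scaled to transcript length and to the number of mapped fragments in the library, so levels can be set beside each other between genes.

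Translation initiation brings the small ribosomal subunit to the cap of an mRNA and moves it along to the start codon. The cap is bound by eIF4E within the eIF4F complex, whose scaffold eIF4G and helicase eIF4A open the leader of the mRNA. The complex eIF2 delivers the initiator tRNA, eIF1 and eIF1A keep scanning accurate, eIF3 holds the parts together, and eIF2B recharges eIF2 with GTP. The eIF2alpha kinases slow this recharging under stress, and 4E-binding proteins block eIF4E when mTORC1 is inactive. In elongation, eEF1A brings aminoacyl-tRNA and eEF2 moves the ribosome along, while eRF1, the product of Etf1, reads the stop codons. Motor neurons switch from eEF1A1 to eEF1A2 as they mature, and loss of Eef1a2 in mice causes motor neuron degeneration.

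The labels were checked first on the targeted gene. Smn1 was at 10.4, 8.64 and 11.9 FPKM over control replicates 1, 2 and 3 and 8.48, 9.30 and 11.1 FPKM over SMA replicates 1, 2 and 3. The groups overlapped, the log2 fold change being -0.09 (standard error 0.15, limma adjusted p = 0.819; exact permutation p = 0.6) and -0.20 without control replicate 2 (limma adjusted p = 0.614). Values of whole genes do not show which exons were transcribed, so Smn1 leaves the genotype labels unchecked, and every direction below rests on the labels. Of the neuron markers, 6 of 6 were above 0 in every library, led by Stmn2, so the tissue held neuronal RNA throughout.

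Control replicate 2 stood apart from the other libraries. Pearson's correlation of log2(FPKM + 1) across all genes tested, which are not independent replicates, was 0.836 to 0.849 between it and the others and at least 0.983 among the other 5. Across the members the same correlations were 0.978 to 0.984 and at least 0.994. The 15 hepatocyte markers, led by Alb, summed to 34860 FPKM in control replicate 2 and to 109 and 79.7 in control replicates 1 and 3 and 61.3, 129 and 69.0 in SMA replicates 1 to 3. All 15 were above 0 in control replicate 2, and Fabp1 and Apoc3 were at 0 in control replicate 3 and SMA replicate 3, the latter with 1 more at 0. The library was thus rich in liver RNA markers beside those of spinal cord. The 10 erythroid markers, led by Hbb-bs, summed to 18945 FPKM in control replicate 2 against 1905 and 1222 in the other controls and 1150, 1750 and 1370 in the SMA libraries. The 7 neutrophil markers, led by S100a8, summed to 418 FPKM there and to 5.36 to 11.6 in the others. Neuron markers summed to 579 FPKM in control replicate 2 against 1111 and 1035 in the other controls and 1074, 1153 and 1157 in the SMA libraries. So neuronal transcripts were present in that library at a lower level. The part of these differences in the results below was not tested. The counts of members called by limma are given with and without control replicate 2, and fold changes of several single genes as well.

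Other cell types also varied between libraries. Fibroblast markers, led by Col1a2, summed to 161, 168 and 145 FPKM in control replicates 1 to 3 and to 176, 74.8 and 33.7 FPKM in SMA replicates 1 to 3, so they were lowest in SMA replicate 3. Endothelial markers, led by Cldn5, summed to 44.5 to 49.0 FPKM in the controls and 27.0 to 34.1 FPKM in the SMA libraries. Motor neuron markers, led by Prph, summed to 39.3 to 88.3 FPKM in the controls and 58.1 to 65.0 FPKM in the SMA libraries, so the groups overlapped. Astrocyte markers (led by Gfap) ran from 388 to 467 FPKM, oligodendrocyte markers (Mbp) from 645 to 1202 FPKM, microglia markers (P2ry12) from 39.3 to 42.7 FPKM and skeletal muscle markers (Acta1) from 0.923 to 7.08 FPKM over the 6 libraries. In bulk tissue, fewer cells of a type and less RNA per cell cannot be told apart.

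Together the translation factor genes made up 1.13%, 0.923% and 1.08% of the summed FPKM of control replicates 1 to 3 and 1.07%, 1.09% and 1.05% of SMA replicates 1 to 3. Of the 63 members, 61 were above 0 in all 6 libraries, 9 had a mean of at least 100 FPKM, 40 a mean of 10 to 100 FPKM and 14 a mean under 10 FPKM. The median coefficient of variation over the 5 libraries without control replicate 2 was 6.51% for the 57 members with a mean of at least 5 FPKM, against 8.05% for all 10288 genes with such a mean. This difference was not tested, and the levels were not matched more closely. Eif3c, a core subunit of eIF3, varied least (1.56%), and among the members tested Eif4ebp1, a repressor of eIF4E, varied most (28.8%).

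The highest of all was Eef1a1, which brings aminoacyl-tRNA to the ribosome. It was at 1134, 1183 and 956 FPKM over control replicates 1, 2 and 3 and 1102, 1090 and 1029 FPKM over SMA replicates 1, 2 and 3, so the groups overlapped. Eef1a1 alone made up 25.7% to 31.0% of the summed FPKM of the members. Its neuronal and muscle paralog Eef1a2 was at 152, 83.8 and 139 FPKM in the controls and 144, 163 and 167 FPKM in the SMA libraries. Control replicate 2 was the low library here, at 0.547 times the mean of the other 5. The exchange factor subunits of eEF1A were lower, with Eef1g at a mean of 121 FPKM, and Eef1e1, better known as a member of the aminoacyl-tRNA synthetase complex, was the lowest of the eEF1 names at 21.2 FPKM. Next came the translocase Eef2 at a mean of 433 FPKM, whose inhibitory kinase Eef2k had a mean of 10.6 FPKM.

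In the eIF4F group, Eif4g2, a scaffold relative that lacks the eIF4E-binding part, had a mean of 201 FPKM and the helicases Eif4a2 and Eif4a1 had means of 186 and 143 FPKM. Lowest was Eif4e3, a divergent cap-binding protein, at 4.62 FPKM. Among the scanning factors Eif1 had the highest mean (129 FPKM) and Eif5b, the GTPase of subunit joining, the lowest (6.77 FPKM). Eif5a, which relieves ribosomes stalled at prolines, had a mean of 113 FPKM and its paralog Eif5a2 one of 8.36 FPKM. Subunits of eIF3 lay between 5.53 FPKM (Eif3j1) and 79.2 FPKM (Eif3h). Among the eIF2 members, from which the rule leaves out the sex-linked gamma subunit genes (Eif2s3x was at 49.0 to 80.6 FPKM), Eif2s2, the beta subunit, had the highest mean (22.9 FPKM) and Eif2d the lowest (13.2 FPKM), while the eIF2B subunits ran from 9.43 FPKM (Eif2b3) to 18.7 FPKM (Eif2b5). Regulators overlapped this range. Eif2ak1, the heme-regulated kinase, had a mean of 13.8 FPKM and Eif2ak2, the kinase activated by double-stranded RNA, one of 3.26 FPKM. Among the 4E-binding repressors, Eif4enif1, which moves eIF4E into the nucleus, had the highest mean (17.6 FPKM) and Eif4ebp3 the lowest (0.213 FPKM). Etf1 had a mean of 24.5 FPKM.

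Names and functions did not match for some members. Eef2kmt codes for a methyltransferase of eEF2 and had a mean of 1.59 FPKM. Eif2c5 is an Argonaute-family name and no initiation factor. It was above 0 in 1 library alone, at 0.0808 FPKM in control replicate 3. The kinases of eIF2alpha and Eef2k regulate translation without being part of the machinery. The coding parts of Eif3j1 and Eif3j2 were identical over 786 aligned bases, with 784 bases in a single unbroken run, so fragments from these may have been divided between the copies in an arbitrary way, and the rank of Eif3j1 above may depend on it. Untranslated regions were not compared.

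**Figure D1:**
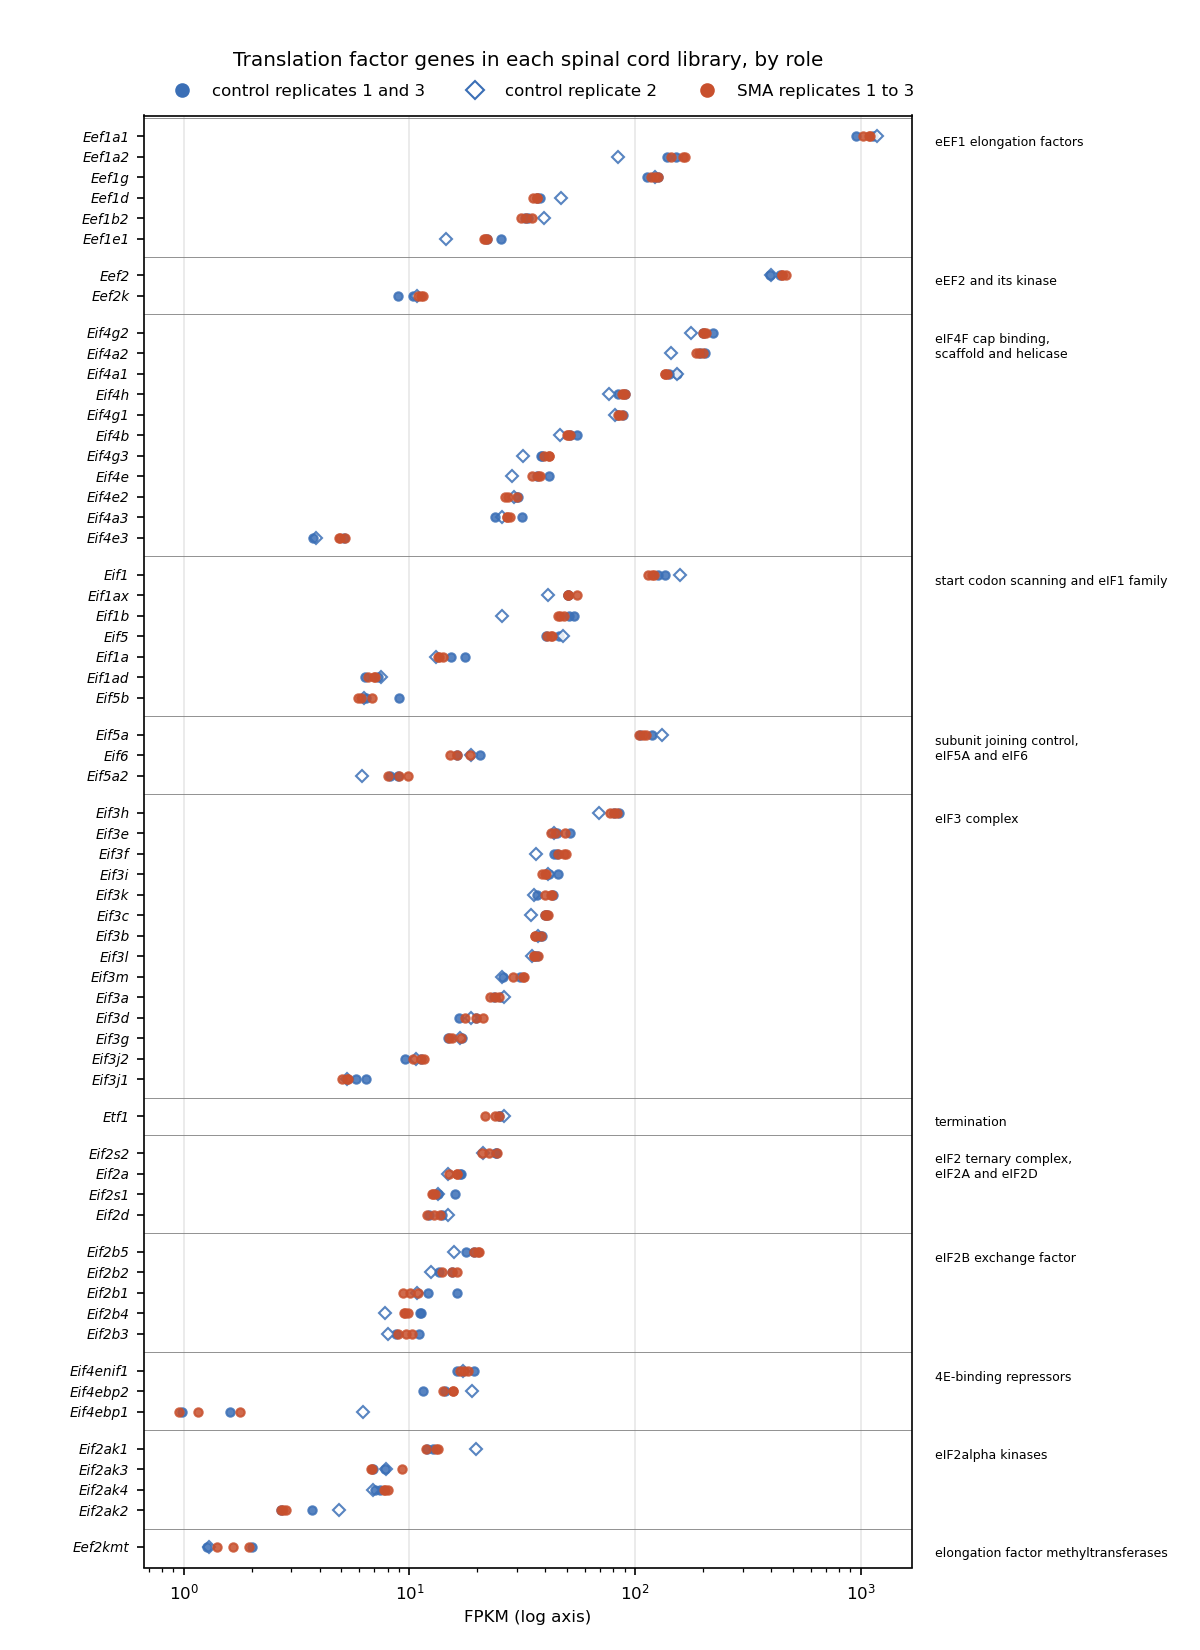
FPKM of the members with a mean of at least 1 FPKM in each of the 6 libraries on a log axis, grouped by role, 1 point per library. Eif4ebp3 and Eif2c5 are left out as too low, Eef1a1 lies highest at 956 to 1183 FPKM, and control replicate 2 (open diamonds) is the library most often away from the others.

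Members were also set side by side by the sequence around their start codon. A start codon is read best when a purine lies at position -3 and a G at position 4, counted from the A of the ATG, and eIF1 is the factor that rejects poor sites. In GENCODE M21 transcripts, 1 per gene, 55 of 61 members had the purine (84.4% of 20617 genes with an ATG) and 35 of 61 had the G (49.5% of all genes). Neither was present in 3 members, Eif1, Eif1b and Eif3b, against 7.46% of all genes. The start sites of the eIF1 paralogs are shown with the start codon in capitals, beside those of 2 members with both features and of Eif4g2, annotated with GTG as its start. A start codon other than ATG was annotated in 23 of 20640 genes.
Eif1: gaatcgtatcgtATGtccgc
Eif1b: cactagtgtcgcATGtccac
Eef1a1: ttcaaagcaaaaATGggaaa
Eef2: ccatccgccaccATGgtgaa
Eif4g2: caagccgccaaaGTGgagag
Eif1 and Eif1b share a C at position -3 and a T at position 4, and their coding parts were 81.3% identical over 342 bases. The longest run that their coding parts shared was 25 bases. Eif1ax and Eif1a, which code for eIF1A, were 85.5% identical, with a shared run of 28 bases.

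Promoters are shown for 2 paralog pairs whose proportions set control replicate 2 apart from the other libraries, Eif1 with Eif1b and Eef1a1 with Eef1a2. The sequences are RefSeq windows in build GRCm38.p6 from 250 bases before to 50 bases after the start, and 49 of the 63 members had an entry. Capitals mark matches on either strand to TATANAA (an AT-rich core promoter motif), CCGGAAG (an ETS-type motif), GGGCGG (a GC box), TGACGTCA (a cyclic AMP response element) and TGATGNAA (part of the motif bound by ATF4 and its partners).
Eif1 promoter, chr11:100319699-100319998, plus strand: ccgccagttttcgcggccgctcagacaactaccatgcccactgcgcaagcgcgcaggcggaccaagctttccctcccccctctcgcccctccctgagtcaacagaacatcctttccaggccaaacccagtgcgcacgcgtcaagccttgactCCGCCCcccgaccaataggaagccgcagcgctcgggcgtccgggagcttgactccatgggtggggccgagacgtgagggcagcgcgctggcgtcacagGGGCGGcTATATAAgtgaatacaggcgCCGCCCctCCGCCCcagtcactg
Eif1b promoter, chr9:120492356-120492655, plus strand: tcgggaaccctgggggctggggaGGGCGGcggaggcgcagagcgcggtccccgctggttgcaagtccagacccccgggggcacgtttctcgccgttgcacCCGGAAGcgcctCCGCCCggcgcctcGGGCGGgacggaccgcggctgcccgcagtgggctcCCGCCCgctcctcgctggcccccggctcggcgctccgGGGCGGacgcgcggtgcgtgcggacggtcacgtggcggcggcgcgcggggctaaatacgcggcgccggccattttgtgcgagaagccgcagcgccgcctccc
Eef1a1 promoter, chr9:78481675-78481974, minus strand: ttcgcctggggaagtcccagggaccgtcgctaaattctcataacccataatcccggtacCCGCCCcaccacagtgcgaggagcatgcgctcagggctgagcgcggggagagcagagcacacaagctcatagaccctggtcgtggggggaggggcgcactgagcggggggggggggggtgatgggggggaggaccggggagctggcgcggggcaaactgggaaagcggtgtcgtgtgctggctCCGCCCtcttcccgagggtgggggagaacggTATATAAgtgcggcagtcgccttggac
Eef1a2 promoter, chr2:181156966-181157265, minus strand: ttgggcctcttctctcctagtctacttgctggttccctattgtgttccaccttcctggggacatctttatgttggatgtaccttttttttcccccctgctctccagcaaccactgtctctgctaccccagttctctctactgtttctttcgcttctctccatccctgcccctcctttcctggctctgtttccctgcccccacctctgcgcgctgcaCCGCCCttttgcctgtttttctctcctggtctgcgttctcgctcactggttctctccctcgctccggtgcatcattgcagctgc
The promoters of the widely used copies Eif1 and Eef1a1 each held 1 TATANAA, placed after the annotated start, while those of Eif1b and Eef1a2 held none. This contrast was not seen in the pairs Eif4a1 with Eif4a2 and Eif5a with Eif5a2, where neither copy held the motif. The Eef1a2 window had 8 CG dinucleotides against 22 in Eef1a1, and Eif1b had 50 against 28 in Eif1. GGGCGG was in the promoters of 36 of the 49 members (38.2% of all 27025 genes with an entry), CCGGAAG in 17 (9.93%), TATANAA in 4 (13.1%), TGACGTCA in 1, Eef2 (2.03%), and TGATGNAA in 1, Eef2k (4.51%). These matches describe the letters in the windows and say nothing of binding.

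Between SMA and control, the abundance of these genes differed little. Of the 63 members, 61 had a mean of at least 0.5 FPKM and were tested with limma on log2(FPKM + 1), together with all 17088 genes at that level. At an adjusted p under 0.05, 0 of 61 members and 0% of all genes were called. At an unadjusted p under 0.05, 0 members were lower and 0 higher in SMA, against 2.39% of all genes lower and 3.4% higher. The smallest adjusted p of a member was 0.683, which was also the smallest of all genes. Log2 fold changes of the members ran from -0.56 for Eif4ebp1 to 0.38 for Eef1a2, with a median of 0.01 (all genes 0.04). Without control replicate 2 the values of Eif4ebp1 and Eef1a2 were -0.01 and 0.12. For 49 of the 61 members the whole 95% interval lay within 0.5 of 0 on the log2 scale, and for 60 within 1, against 40.8% and 87.6% of all genes. The exception was Eif4ebp1.

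Without control replicate 2 the intervals were narrower. Then 0 of 61 members passed an adjusted p of 0.05 (0.0121% of all 16574 genes did, 2 genes). At an unadjusted p under 0.05, 5 members were lower in SMA (8.2%, against 5.2% of all genes) and 0 were higher (against 5.27% of all genes). The median log2 fold change of the members was -0.03 (all genes 0.00), with 37 of 61 below 0 (60.7%, against 49.6% of all genes; 49.2% against 42.0% in all libraries). The 95% interval lay within 0.5 of 0 for 59 members and within 1 for 61, against 68.1% and 96.9% of all genes. The 5 lower members came from 2 roles: Eif1, Eif1a and Eif1b out of 7 scanning factors, and Eif2b1 and Eif2b4 out of 5 eIF2B subunits. In every other role the count was 0. With other scalings of the 5 libraries, tried after the data were seen, 5 to 8 members were lower, with at least 4 of these 5 among them. The limit to 2 roles did not hold in each of these scalings. Rescaling to the same total added Eif2s1, Eif3i and Eif4a1, and quantile normalization had Eif4a1 in place of Eif2b4. After rescaling to the same total, the 8 were 13.1% of the members against 8.82% of all genes, and with median ratio scaling and quantile normalization the 5 were 8.2% against 5.41% and 5.19%.

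**Figure D2:**
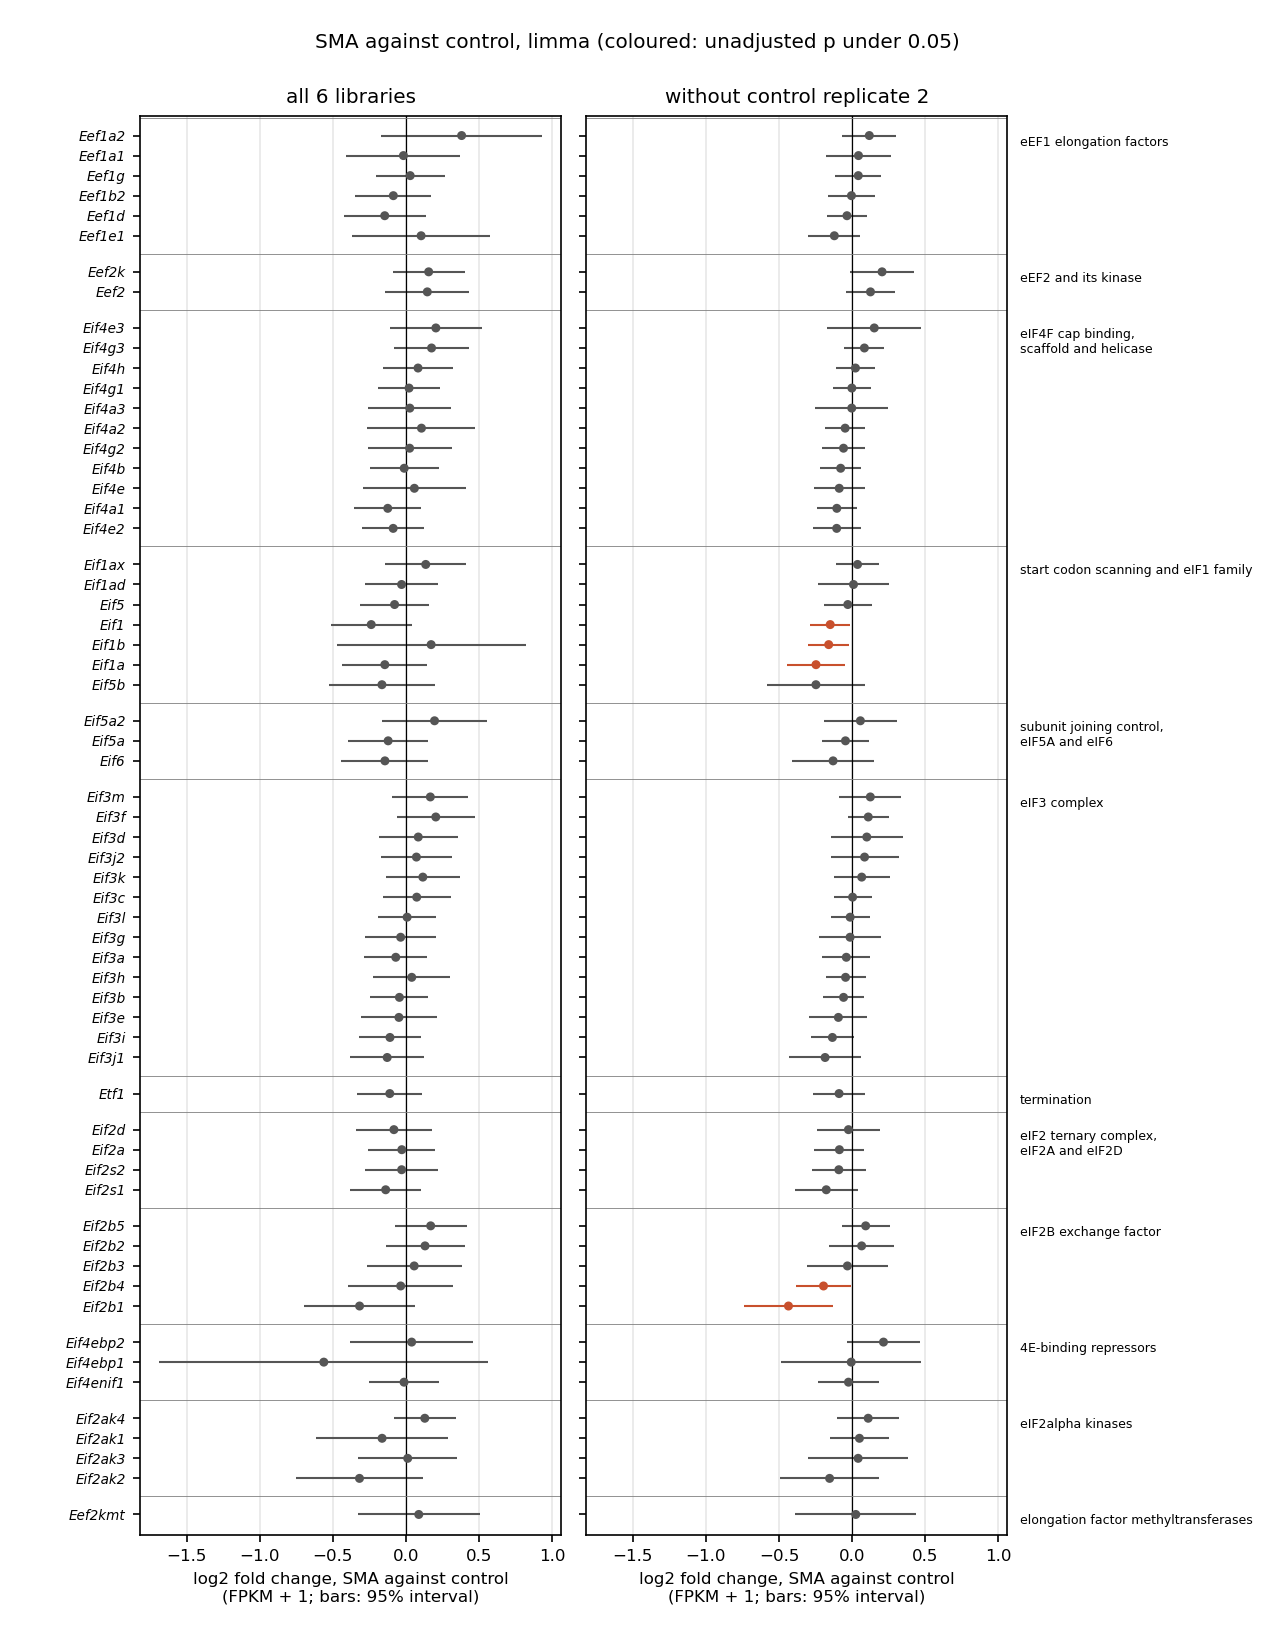
Log2 fold change of SMA against control (FPKM + 1) with its 95% interval from limma for the 61 members tested, in all 6 libraries (left) and without control replicate 2 (right). Coloured points have an unadjusted p under 0.05, and these are 5 lower members in the right panel, while most intervals include 0.

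Eif1 codes for the factor that keeps the scanning ribosome open until a start codon is matched. It was at 135, 157 and 127 FPKM over control replicates 1, 2 and 3 and 121, 119 and 114 FPKM over SMA replicates 1, 2 and 3. All SMA libraries lay below all controls, with control replicate 2 the highest. The log2 fold change was -0.24 (standard error 0.12, limma adjusted p = 0.683) in all libraries and -0.15 (standard error 0.06, limma adjusted p = 0.443) without control replicate 2. Exact permutation over the 6 libraries gave p = 0.1, the smallest that 3 libraries against 3 allow.

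Its paralog Eif1b was at 53.9, 25.8 and 51.2 FPKM in the controls and at 45.6, 46.4 and 48.6 FPKM in the SMA libraries. The SMA libraries lay below control replicates 1 and 3 and above control replicate 2, where Eif1b was at 0.526 times the mean of the other 5. The direction therefore turned with that library, from a log2 fold change of 0.17 in all 6 to -0.16 without it (limma adjusted p = 0.436). Eif1a, which codes for an eIF1A that stabilises the scanning complex, was at 17.6, 13.1 and 15.3 FPKM in the controls and 14.1, 13.5 and 13.4 FPKM in the SMA libraries. The groups overlapped through control replicate 2, and the log2 fold change was -0.15 in all libraries and -0.25 without it (limma adjusted p = 0.405). The X-linked copy Eif1ax lay at 50.3 to 55.1 FPKM in SMA and 41.1 to 50.6 FPKM in control, and its log2 fold change went from 0.13 in all libraries to 0.04 without control replicate 2, its lowest library.

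Eif2b1 codes for the alpha subunit of eIF2B, through which the exchange factor senses phosphorylated eIF2. It was at 16.3, 10.8 and 12.1 FPKM over control replicates 1, 2 and 3 and 10.1, 9.39 and 10.9 FPKM over SMA replicates 1, 2 and 3. Control replicate 1 was the high library, and control replicate 2 lay within the SMA range. Its log2 fold change was -0.32 (standard error 0.16, limma adjusted p = 0.683) in all libraries and -0.44 (standard error 0.13, limma adjusted p = 0.366) without control replicate 2. The delta subunit gene Eif2b4 was at 11.1, 7.76 and 11.3 FPKM in control and 9.60, 9.87 and 9.49 FPKM in SMA. Control replicate 2 was the lowest of the 6, and without it SMA lay below control with a log2 fold change of -0.20, against -0.04 in all libraries (limma adjusted p = 0.457 without it). The files give Eif2b4 a span shared with Snx17 and Zfp513, so fragments of those genes may be included. The catalytic epsilon subunit Eif2b5 went the other way in value (17.9, 15.7 and 19.3 FPKM in control, 20.3, 20.1 and 19.2 FPKM in SMA, overlapping), with a log2 fold change of 0.17 in all libraries and 0.09 without control replicate 2.

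Without a threshold on p, 4 members had all SMA libraries below all controls (6.56% of members, against 6.67% of all genes tested) and 5 had them above (8.2%, against 10.3%), shares close to or under those of all genes. This depended on the scaling: with median ratio scaling 12 members were below (19.7%, against 8.87% of all genes) and 3 above (4.92%, against 8.28%). The members are named after their values were seen. Below were Eif1, Eif2s1 (the alpha subunit of eIF2, the target of the stress kinases), Eif3i and Eif4a1. Eif2s1 was at 15.9, 13.4 and 13.3 FPKM in control and 13.0, 12.7 and 12.6 FPKM in SMA. Eif4a1 was at 153, 153 and 141 FPKM in control and 135, 139 and 136 FPKM in SMA, a log2 fold change of -0.13 in all libraries and -0.11 without control replicate 2. The gap between the nearest libraries of the 2 groups was small for both.

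Above were Eef2, Eef2k, Eif2ak4, Eif3f and Eif4g3. Without control replicate 2 the log2 fold change of Eif3f went from 0.20 to 0.11 and that of Eif4g3 from 0.17 to 0.08. Eef2 was at 440, 400 and 395 FPKM in control and 449, 469 and 446 FPKM in SMA, so that control replicate 1 nearly reached the SMA range (log2 fold change 0.15, limma adjusted p = 0.683). Eef2k was at 10.4, 10.8 and 8.89 FPKM in control and 10.9, 11.2 and 11.5 FPKM in SMA (log2 fold change 0.15, limma adjusted p = 0.683). Without control replicate 3 the log2 fold change of Eef2k was 0.079. The translocase and the kinase that restrains it thus both had their higher values in SMA, though by small margins. After rescaling each library to the same summed FPKM, Eef2k and Eif2ak4 were the members with all SMA libraries above. With median ratio scaling they were Eif2ak4, Eif3f and Eif4g3, without Eef2 and Eef2k, and with quantile normalization Eef2, Eef2k and 4 others. Eif1 was below and Eif2ak4 above in each scaling tried. In single scalings 6.03% to 8.87% of all genes were below and 7% to 11.4% above. The scalings reuse the same 6 libraries, and the share of all genes that kept their side in each was not counted. Eif2ak4, the kinase that senses uncharged tRNA, was at 7.37, 6.90 and 7.06 FPKM in control and 8.02, 7.74 and 7.83 FPKM in SMA. Without scaling, the other eIF2alpha kinases overlapped between groups. After rescaling to the same total, Eif2ak2 had all SMA libraries below all controls.

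**Figure D3:**
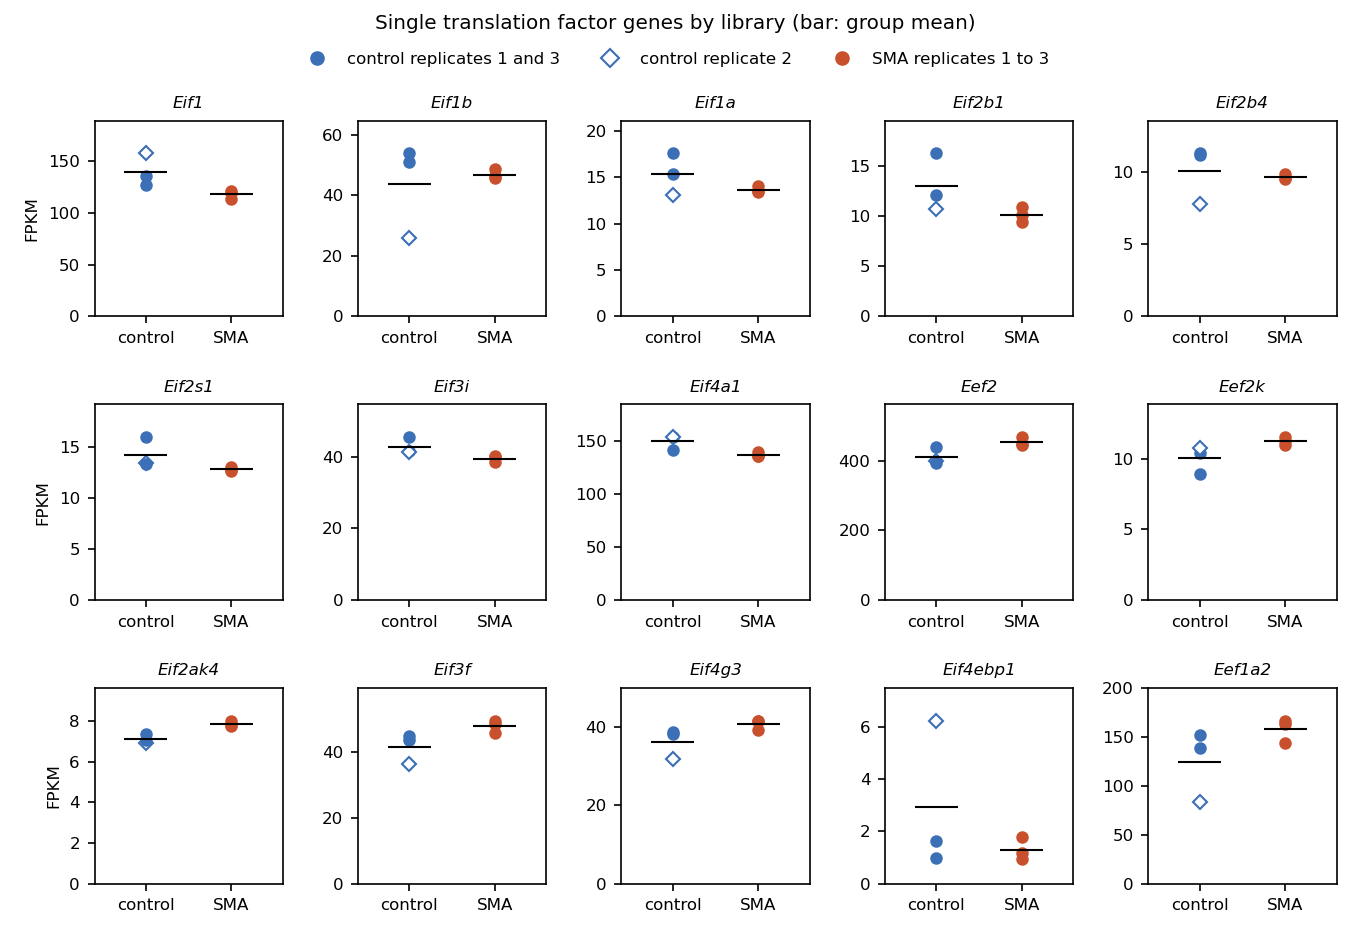
FPKM of 15 single members in each library, with control on the left and SMA on the right of each panel and the group mean as a bar. Eif1 has all SMA libraries below all controls, Eef2 has them above, and in Eif1b, Eif4ebp1 and Eef1a2 control replicate 2 (open diamond) lies far from the other libraries.

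Directions are given here by role, and differences between the roles were not tested. Of 14 eIF3 subunits, 6 had a log2 fold change below 0 in all libraries and 8 without control replicate 2, with medians of 0.02 and -0.01 and a range of -0.19 to 0.12 in the latter. Of 11 eIF4F genes, 3 were below 0 in all libraries and 8 without control replicate 2, with medians of 0.03 and -0.05. The 6 eEF1 genes split evenly in both fits. The 4 genes of eIF2, eIF2A and eIF2D were all below 0 in both, with medians of -0.06 in all libraries and -0.09 without control replicate 2, and 5 of 7 scanning factors were below 0 in both. Of all genes, 42.0% and 49.6% were below 0 in these fits. With control replicate 1, control replicate 3, SMA replicate 1 or SMA replicate 3 left out, 3 of the 4 eIF2, eIF2A and eIF2D genes were below 0. The counts moved with the scaling: with median ratio scaling of all libraries 7 of 11 eIF4F genes were below 0, and without control replicate 2 at the same total 5 of 6 eEF1 genes and 7 of 7 scanning factors were. Etf1 had a log2 fold change of -0.11 in all libraries and -0.09 without control replicate 2. Members whose span in the files is shared with other genes numbered 19, among them Eif4g2 (with Gm23262), Eif4a2 (with Rfc4 and Snora81), Eef2k (with Gm15774 and 1 other) and Eif5b (with Gm37062 and Rev1), and their values may include fragments of the neighbours.

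Ratios of related genes within a library do not depend on how the library was scaled. For 8 ratios, 7 of paralogs and that of Eef2k to Eef2, the exact permutation p was 0.1 at the least and 0.48 at the least after Benjamini-Hochberg adjustment over the 8. Eef1a1 was 7.47, 14.1 and 6.87 times Eef1a2 in control replicates 1 to 3 and 7.65, 6.68 and 6.16 times in SMA replicates 1 to 3. The mature neuronal form was thus in the minority in every library, and control replicate 2 was the extreme. The log2 ratio of Eef1a2 to Eef1a1 was 0.40 higher in SMA with all libraries (exact permutation p = 0.3) and 0.07 higher without control replicate 2. Eif4a2 was 1.33, 0.940 and 1.38 times Eif4a1 in control and 1.37, 1.43 and 1.41 times in SMA. Here control replicate 2 was the only library in which Eif4a1 was the higher gene, and the log2 fold change of Eif4a2 turned from 0.11 to -0.05 without it. The ratio of Eif1b to Eif1 was 0.398, 0.164 and 0.404 in control and 0.377, 0.390 and 0.428 in SMA, so that both genes kept their proportion outside control replicate 2.

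With all libraries, Eif4g3 to Eif4g1, a pair of scaffold genes, was the only 1 of the 8 ratios in which the groups did not overlap. It was 0.461, 0.389 and 0.439 in control and 0.489, 0.470 and 0.477 in SMA, a difference of 0.16 in log2 ratio with all libraries and 0.09 without control replicate 2 (exact permutation p = 0.1 in both). Control replicate 1 came close to the SMA range. Eif5a2 to Eif5a ran from 0.0469 in control replicate 2 to 0.0941 in SMA replicate 2, Eif4e2 to Eif4e from 0.714 in SMA replicate 3 to 1.01 in control replicate 2, and Eif4ebp2 to Eif4ebp1 from 3.05 in control replicate 2 to 14.8 in SMA replicate 2. Eef2k to Eef2 ran from 0.0225 to 0.0269 with overlapping groups, and without control replicate 2 all SMA libraries lay above the controls, the difference in log2 ratio going from 0.02 to 0.10 (exact permutation p = 0.2 without it).

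**Figure D4:**
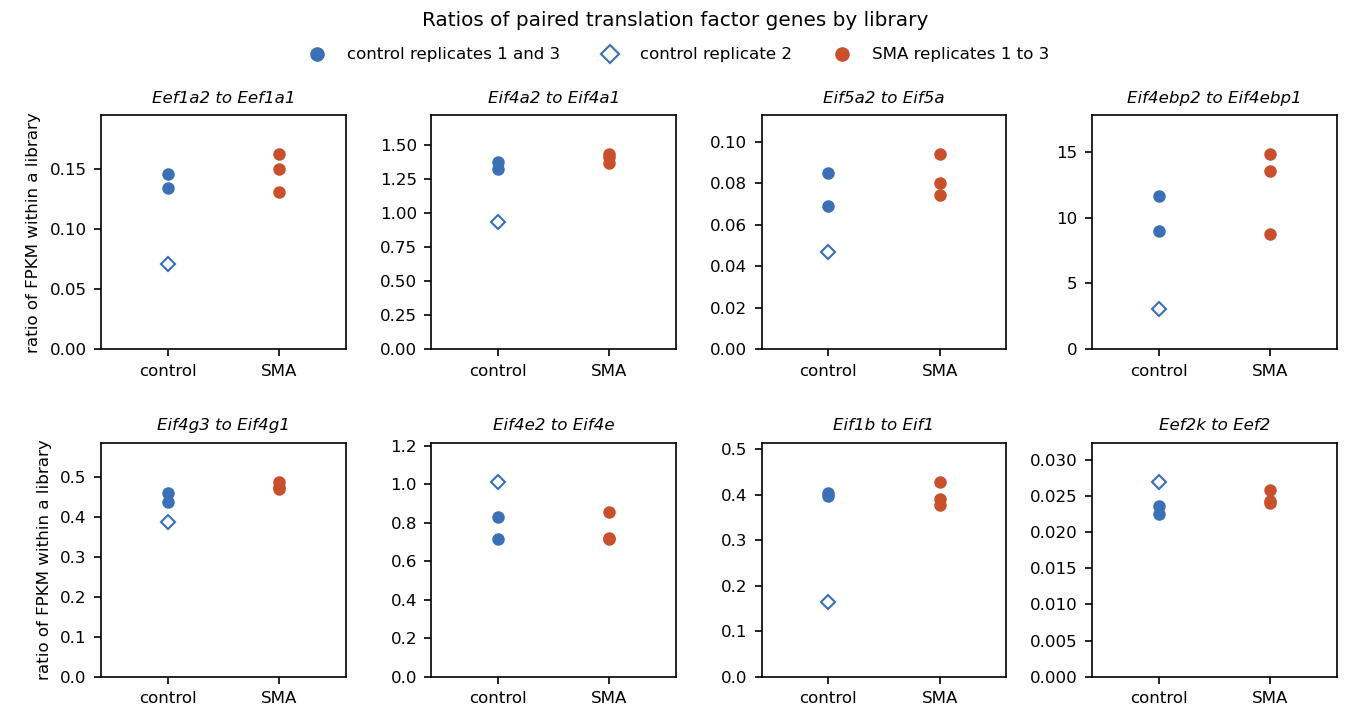
Ratio of FPKM within each library for 8 pairs of genes, with control on the left and SMA on the right of each panel, 1 point per library. Control replicate 2 (open diamond) is the highest or the lowest library in each of the 8 panels, and in Eif4g3 to Eif4g1 all SMA libraries lie above all controls.

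Control replicate 2 was set against the other libraries for each member. Without scaling it was the highest library for 14 of the 61 members tested (23%, against 24.7% of all genes) and the lowest for 25 (41%, against 44.9% of all genes), shares close to those of all genes. Scaling moved these counts: it was the highest for 6 members (9.84%, against 17.8% of all genes) and the lowest for 42 (68.9%, against 57.6%) after rescaling to the same total, and for 25 (41%, against 33.7%) and 13 (21.3%, against 33.0%) with median ratio scaling. At least 2-fold above the range of the other 5 was 1 member, Eif4ebp1 (8.23% of all genes), and at least 2-fold below it 0 members (1.04% of all genes). Eif4ebp1 was at 0.987, 6.24 and 1.61 FPKM over control replicates 1, 2 and 3 and 1.77, 0.952 and 1.16 FPKM over the SMA libraries. Its level in control replicate 2 was 4.82 times the mean of the others, which lay under 2 FPKM. Eif2ak2 was 1.66 times and Eif2ak1, the kinase that serves erythroid cells, 1.57 times their mean, while Eif1b (0.526), Eef1a2 (0.547) and Eef1e1 (0.643) were the lowest. Without this library the log2 fold change of Eif2ak1 turned from -0.16 to 0.05 and that of Eef1e1 from 0.10 to -0.12. The markers of liver, red cells and neutrophils that were high in this library are given above, and their part in these values was not tested.

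**Figure D5:**
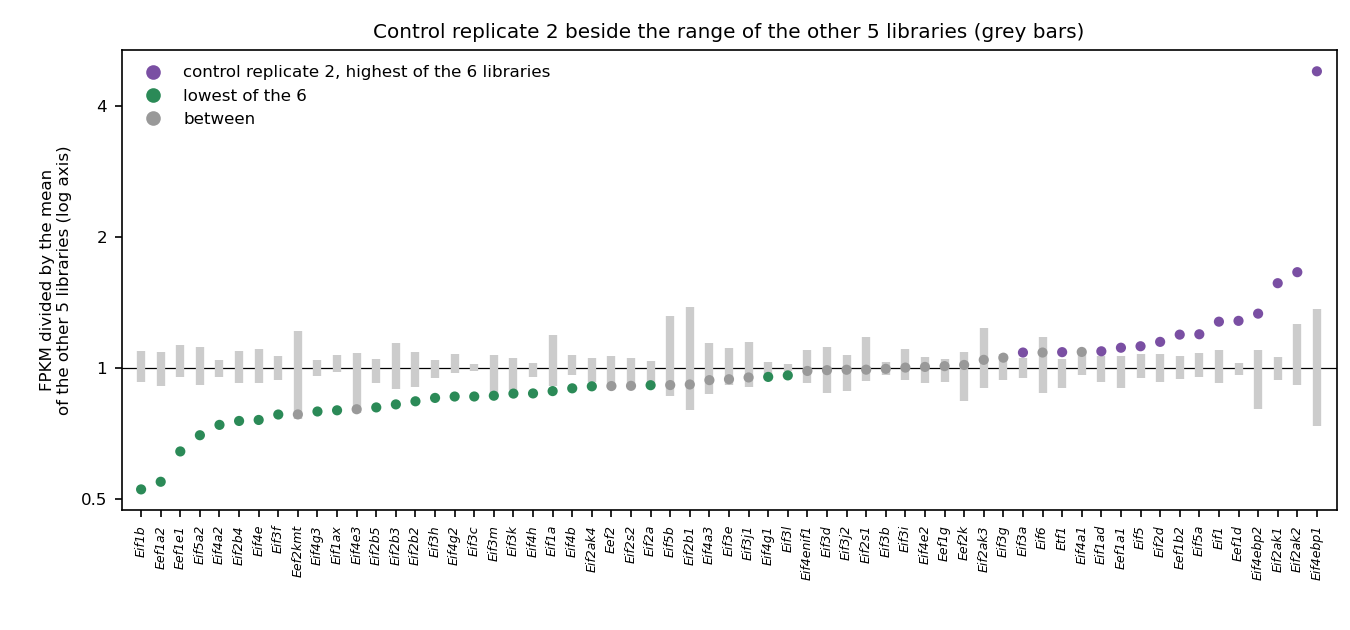
FPKM of the 61 members tested in control replicate 2 divided by the mean of the other 5 libraries (log axis), ordered from low to high, with the range of those 5 as grey bars. Eif4ebp1 lies highest at 4.82, and Eif1b and Eef1a2 lie lowest at 0.526 and 0.547.

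Other genes of the pathway were compared in the same way. Of 68 genes listed, 67 were in the files and tested, and 1 was lower and 2 were higher at an unadjusted p under 0.05 in all libraries (1.49% and 2.99%, against 2.39% and 3.4% of all genes), with 0 at an adjusted p under 0.05. Without control replicate 2, 4 were lower and 3 higher (5.97% and 4.48%, against 5.2% and 5.27% of all genes), counts near those shares. In all libraries, 7 of the 67 had all SMA libraries above all controls and 5 had them below. Of all genes tested, 10.3% were above and 6.67% below, so these counts were also near the shares of all genes. The lower ones were Pabpc4, Dhps, Bzw1 and Hbs1l and the higher ones Dohh, Ddit4 and Ddit3, of which Dhps, Bzw1, Hbs1l and Ddit3 are named after their values were seen. Pabpc4, a cytoplasmic poly(A)-binding protein, was at 21.3, 28.0 and 19.8 FPKM in control and 17.3, 17.8 and 18.1 FPKM in SMA (log2 fold change -0.35, limma adjusted p = 0.683; -0.20 without control replicate 2). All SMA libraries lay below all controls. Dohh, the hydroxylase that finishes the hypusine of eIF5A, was at 24.5, 18.5 and 20.4 FPKM in control and 28.8, 27.4 and 24.8 FPKM in SMA (0.35, limma adjusted p = 0.683; 0.26 without control replicate 2), with control replicate 1 just below the SMA range. Ddit4, an mTORC1 inhibitor induced by stress, was at 19.9, 13.1 and 19.2 FPKM in control and 23.5, 22.0 and 24.6 FPKM in SMA (0.43, limma adjusted p = 0.683; 0.25 without control replicate 2), all SMA above all control libraries. Dhps, which starts the hypusine of eIF5A, was at 19.8, 10.6 and 21.5 FPKM in control and 13.5, 13.1 and 16.0 FPKM in SMA, overlapping through control replicate 2, and its log2 fold change went from -0.21 to -0.51 without it (limma adjusted p = 0.276). Ddit3, which codes for the stress factor CHOP, was at 3.98, 4.45 and 2.33 FPKM in control and 5.40, 4.67 and 4.57 FPKM in SMA, all SMA above all control libraries (log2 fold change 0.39, and 0.53 without control replicate 2, limma adjusted p = 0.413). Named after their values were seen are also the 3 pathway genes with the lowest log2 fold changes. Deptor was at 2.73, 8.02 and 2.32 FPKM in control and 2.15, 2.08 and 1.62 FPKM in SMA (-0.71, and -0.26 without control replicate 2). Dap was at 5.48, 10.8 and 4.00 FPKM in control and 3.68, 3.78 and 3.12 FPKM in SMA (-0.68 and -0.33). Both had all SMA libraries below all controls, with control replicate 2 the highest library. Atf5 went from -0.998 to 0.00, being at 45.7 FPKM in control replicate 2 and at 3.86 to 6.45 FPKM in the others. Among the 17 integrated stress response genes in the files, the median log2 fold change was -0.02 (0.00 without control replicate 2), and Atf4, the transcription factor at its centre, was at 33.1, 32.1 and 30.7 FPKM in control and 32.4, 30.7 and 31.3 FPKM in SMA. In all libraries the medians were 0.05 for 14 mTORC1 and S6 kinase genes, 0.01 for 14 initiation helpers, 0.01 for 7 poly(A)-binding genes and -0.03 for 15 genes of elongation, release and factor modification. Without control replicate 2 they were 0.00, -0.05, -0.02 and -0.04 in that order.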

How the data were processed

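Ribosomal RNA-depleted, strand-specific bulk-seq of 3 SMA and 3 control spinal cord libraries was analysed, with groups taken from the sample labels. Reads were aligned with HISAT2, and the authors deposited FPKM per library from Cufflinks. The submitters' notes name build mm10, and versions are not given in the sources used here. A gene absent from a library was set to 0. The read depth is unknown because no counts were used. Ratios of the lowest values gave depths of 1.00 to 1.15 relative to SMA replicate 1, and no counting interval could be given.

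Log2(FPKM + 1) was compared, for genes averaging 0.5 FPKM or more, with limma 3.58.1 (R 4.3.3; variance trend, two-sided, Benjamini-Hochberg over all genes), with and without control replicate 2. The fold change on this scale understates that of low genes. Exact two-sided permutation tests, with a smallest p of 0.1 for 3 libraries against 3, were added for single values. The procedure was tested on simulated data. Their spread was taken from the 5 libraries without control replicate 2, so they do not represent the fit that includes that library. Start codons and coding identity came from GENCODE M21, 1 transcript per gene, with Python 3.11.15 and biopython 1.88, and promoters from RefSeq (GRCm38.p6). The promoter motifs and the start codon features were chosen after the expression values were seen.

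Named are the genes of the paralog ratios, members at an unadjusted p under 0.05 in either fit (up to 5 in each direction), the highest and lowest member of each role, members at least 2-fold outside the range of the other libraries in control replicate 2, members called at an adjusted p under 0.05, pathway genes at an unadjusted p under 0.05 in all libraries, Smn1, leading markers and members that share a locus. Others are named as examples after their values were seen. Members and lists were chosen with earlier results of these data known. The alternatives were other scalings, pseudocounts, filters, robust eBayes, a replicate block, and leaving out each library. The result of 1 cell type marker list is not reported here.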

Additional observations from a re-analysis of the deposited data

How the results depend on the processing

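The near absence of calls held in most settings. Members lower at an unadjusted p under 0.05 (limma) numbered 0 in all 6 libraries, against 2.39% of all genes. There was 1 with median ratio scaling (Eif2b1, 1.64% of members against 3.3% of all genes). With quantile normalization there was also 1 (Eif1, 1.64% against 1.96%). When single libraries were left out, 0 to 5 were lower. The 5 were without control replicate 2 (8.2% against 5.2%), and 2 (Eif1 and Eif2ak2) were without control replicate 3 (3.28% against 4.16%). Members higher numbered 0 to 1 over the same omissions, the 1 being Eif4e3 without control replicate 1 (1.64%, against 6.03% of all genes). Without control replicate 2, and chosen after seeing the data, 8 members were lower after rescaling to the same total (13.1%, against 8.82% of all genes). In the same way 5 were lower with median ratio scaling and 5 with quantile normalization (8.2%, against 5.41% and 5.19%). Members at an adjusted p under 0.05 numbered 0 in all of these settings, and all genes called 0 to 2 with libraries left out, with 1, 1 and 2 when control replicate 2 was left out and the rest rescaled to the same total, by median ratio or by quantiles. The replicate number as a block gave 0 lower and 0 higher members, against 1.77% and 2.08% of all genes. Deviations of same-numbered libraries correlated at -0.04, 0.02 and 0.08, so the numbers are not known to pair the samples.

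The median log2 fold change of the members was 0.01 and moved to -0.051 with median ratio scaling, while that of all genes went from 0.044 to -0.0048. It was -0.074 without control replicate 2 at the same total (all genes -0.043), chosen after seeing the data. Members with all SMA libraries below all controls numbered 4 and became 12 with median ratio scaling (19.7%, against 8.87% of all genes). Those above, 5, became 2 after rescaling to the same total (3.28%, against 7% of all genes). With median ratio scaling they became 3 (4.92%, against 8.28%). Members highest in control replicate 2 numbered 14, 6 after rescaling to the same total and 25 with median ratio scaling. Those lowest in it numbered 25, and in alternatives chosen after seeing the data 42 after rescaling to the same total and 13 with median ratio scaling. Reversals came mostly with single libraries left out. Eif1b went from 0.17 to between -0.16 and -0.21 without control replicate 2 (-0.16 unscaled, -0.21 at the same total, -0.16 with median ratio scaling, -0.16 with quantile normalization) and reached 0.36 without control replicate 1. Eif2b4 was 0.039 without control replicate 1, 0.047 without control replicate 3 and -0.20 without control replicate 2, and Eif4ebp1 was 0.0026 with control replicate 2 left out and quantile normalization together, and -0.01 with that library left out alone. The log2 ratio of Eif1b to Eif1 differed by -0.012 without control replicate 2, and leaving out libraries in turn took it from there to 0.64. For Eef2k to Eef2 the range was -0.031 to 0.099, with -0.0086 without SMA replicate 3. Unless the omitted library is the reason, the cause was not tested. Eif1, Eif2b1 and Eif1a kept a log2 fold change below 0 in the 13 alternatives that change its value, the other 4 leaving it as it was, but sizes depended on single libraries. Eif1 went from -0.24 to -0.15 without control replicate 2. Without control replicate 1, Eif2b1 went from -0.32 to -0.16, Eif1a from -0.15 to -0.048 and Eif2s1 from -0.14 to -0.060.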

Other observations

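The names that the rule leaves out hold values of their own. Eif2s3x and Eif2s3y, the X- and Y-linked genes of the gamma subunit of eIF2, differed between libraries within groups. Eif2s3y was at 34.2, 10.1 and 32.7 FPKM over control replicates 1, 2 and 3 and 33.6, 31.0 and 0.0325 FPKM over SMA replicates 1, 2 and 3. Eif2s3x was at 58.6, 64.9 and 49.0 FPKM in the controls and 52.6, 57.5 and 80.6 FPKM in the SMA libraries, so SMA replicate 3 had the highest X-linked and the lowest Y-linked value. The labels used here do not give the sex of the mice. Eif4a-ps4, a pseudogene name, was at 3.44, 3.55 and 3.38 FPKM in control and 4.81, 5.88 and 4.91 FPKM in SMA. Its SMA libraries all lay above all controls, as was so for 10.3% of all genes tested.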
